A study of Mus musculus with 19 samples.

Results

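Fragments of the mitochondrial mRNAs for complex I were followed through the small RNA of mouse sperm. The members were the 7 NADH dehydrogenase genes of the mitochondrial genome, mt-Nd1, mt-Nd2, mt-Nd3, mt-Nd4l, mt-Nd4, mt-Nd5 and mt-Nd6. They are 7 of the 13 protein-coding genes of that genome and 7 of 34193 annotated genes with reads. A read was counted where it was 18 nt or longer, lay within one of these genes on its sense strand, matched it exactly and matched no tRNA or rRNA. In 19 libraries 19091 reads with 5548 distinct sequences qualified, or 0.00268% of all 711662713 cleaned reads. Reads of the opposite strand are given apart.

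The sperm came from the cauda epididymis of wild-type C57BL/6J males that were 8 weeks old at the start and were gavaged daily for 4 weeks, either with corn oil (control) or with dicyclohexyl phthalate (DCHP), a plasticizer, in corn oil. RNA of 15 to 50 nt was cut from a gel and sequenced in 2 ways. In traditional RNA-seq adapters were joined to the RNA as it was. In PANDORA-seq the RNA was treated before ligation with an RNA demethylase, AlkB, since methyl groups can block reverse transcription. It was also treated with T4 polynucleotide kinase (T4PNK), which repairs ends that adapters cannot join. Somatic cells of the sperm preparations had been lysed. The study states that RNA from control and exposed sires went through both methods, and it describes its PANDORA-seq libraries as separate mice. Which traditional library came from which mouse is not given in the sources used here, so part of the spread among these may be technical. There were 4 PANDORA-seq control libraries and 5 libraries in each of the other groups, PANDORA-seq DCHP, traditional control and traditional DCHP.

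Complex I is the first enzyme of the respiratory chain, which takes electrons from NADH and pumps protons across the inner mitochondrial membrane. Its membrane core subunits are encoded in mitochondrial DNA and the remaining subunits in the nucleus. Mitochondrial DNA is copied into long transcripts that are cut apart at the tRNAs between the genes, and mt-Nd6 lies on the strand opposite to the other mRNAs. Mature sperm carry their mitochondria in the midpiece, where they serve motility.

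Depth was 21588335 to 56506344 reads per library, and no read was shorter than 15 or longer than 45 nt, so longer fragments were not seen. Markers of sperm and of other cells were both present. Of 12 spermatid and sperm markers, all had reads in every group, and their summed level of 211 to 409 reads per 1000000 cleaned reads (RPM) overlapped between the methods. Single sperm markers differed in opposite directions, since Smcp, a mitochondrial capsule protein, had 58.0 ± 12.7 RPM in PANDORA-seq control and 169 ± 47.96 RPM in traditional control, and Odf1, an outer dense fibre protein, 90.5 ± 14.2 and 33.2 ± 6.71 RPM. The summed epididymal epithelium markers were at 379 to 818 RPM in PANDORA-seq and at 43.3 to 180 RPM in traditional RNA-seq. Most of this sum was Crisp1, a secreted protein, at 530 ± 153 RPM in PANDORA-seq control and 97.1 ± 41.2 RPM in traditional control. Adam7 had 17.5 ± 9.81 and 9.76 ± 7.04 RPM in these groups, so the sum mainly follows 1 gene. Cst11 had no read in any group, and Lcn5, Lcn8 or Lcn9 had none in some. The 7 leukocyte markers lay at 30.4 to 45.98 RPM and 5.66 to 33.2 RPM, the 5 red blood cell markers at 7.03 to 31.0 RPM and 0.518 to 4.72 RPM, and the 7 smooth muscle and stroma markers at 98.0 to 146 RPM and 21.2 to 401 RPM. The part of these cells in the results below was not tested, and fewer cells of a type and less RNA per cell cannot be told apart.

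The most abundant fragment of each gene in each method shows what was sequenced and how the methods differed. The first base is in capitals, and T stands for U of the RNA. Positions are those of the GRCm38 (mm10) mitochondrial chromosome, and all fragments lie in coding sequence of genes without introns.

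mt-Nd1, PANDORA-seq, chrM:3500-3527, + strand: Tttaccagaactctactcaactaacttc

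mt-Nd1, traditional RNA-seq, chrM:3468-3486, + strand: Attatcttcctaggacccc

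mt-Nd2, PANDORA-seq, chrM:4270-4312, + strand: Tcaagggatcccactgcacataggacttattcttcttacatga

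mt-Nd2, traditional RNA-seq, chrM:3914-3936, + strand: Ataaatcctatcacccttgccat

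mt-Nd3, PANDORA-seq, chrM:9587-9619, + strand: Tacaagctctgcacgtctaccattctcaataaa

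mt-Nd3, traditional RNA-seq, chrM:9746-9765, + strand: Aattctatctctaggcctag

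mt-Nd4l, PANDORA-seq, chrM:9921-9951, + strand: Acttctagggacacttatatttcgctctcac

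mt-Nd4l, traditional RNA-seq, chrM:10081-10098, + strand: Tgcgaagcagctgtagga

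mt-Nd4, PANDORA-seq, chrM:10564-10592, + strand: Ttacccgatgagggaaccaaactgaacgc

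mt-Nd4, traditional RNA-seq, chrM:10205-10239, + strand: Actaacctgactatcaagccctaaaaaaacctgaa

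mt-Nd5, PANDORA-seq, chrM:12192-12231, + strand: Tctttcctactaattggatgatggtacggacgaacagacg

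mt-Nd5, traditional RNA-seq, chrM:12011-12028, + strand: Atctgtagccctttttgt

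mt-Nd6, PANDORA-seq, chrM:13595-13613, - strand: Tagtagctgggtgatcttt

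mt-Nd6, traditional RNA-seq, chrM:13812-13834, - strand: Agagacttggggatctaactgat

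No gene had the same leading fragment in both methods. The leading fragments of traditional RNA-seq rested on few reads. All 8 reads of the mt-Nd4 fragment came from 1 library, replicate 2 of traditional DCHP, and without that library another sequence led for mt-Nd2, mt-Nd3, mt-Nd4 and mt-Nd6. The mt-Nd5 fragment of 40 nt was the most abundant of all, at 0.484 RPM in PANDORA-seq with reads in 9 of 9 libraries, beside 0.00837 RPM in traditional RNA-seq with reads in 2 of 10. The leading mt-Nd1 fragment of PANDORA-seq had 81 reads in its 9 libraries and none in the traditional ones. In the other direction, the mt-Nd4l fragment of 18 nt had 18 reads in 5 traditional libraries and none in PANDORA-seq. Not every traditional leader was particular to that method. The mt-Nd5 fragment of 18 nt had 0.199 RPM in PANDORA-seq, with 77 reads in 8 of 9 libraries, and 0.168 RPM in traditional RNA-seq. The mt-Nd6 fragment of 23 nt had 0.0561 RPM, with reads in 9 of 9 libraries, and 0.0382 RPM. The traditional leaders of the other genes were higher in traditional RNA-seq. No fragment dominated its gene, since the share of the gene's RPM held by the leading sequence ran from 1.37% for mt-Nd4 in traditional RNA-seq to 7.84% for mt-Nd3 in the same method. Of the sense sequences, 4453 were seen in PANDORA-seq. Traditional RNA-seq had 1689, and the 594 in common were 13.3% of the PANDORA-seq and 35.2% of the traditional sequences.

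The summed level of the 7 mRNAs was higher in PANDORA-seq, except for 1 traditional library. In PANDORA-seq control it was 30.1, 30.0, 63.7 and 36.0 RPM in replicates 1 to 4. In PANDORA-seq DCHP it was 42.6, 36.0, 31.5, 42.8 and 39.8 RPM. Control replicate 3 stood above all other PANDORA-seq libraries, and the remaining controls overlapped the exposed samples. Traditional control libraries had 10.7, 16.9, 14.3, 10.2 and 7.15 RPM. Traditional DCHP libraries had 8.18, 54.1, 15.1, 11.3 and 9.03 RPM, so replicate 2 was far above the others of its group and inside the PANDORA-seq range. The group means were 39.96 ± 16.1 (SD, n = 4), 38.6 ± 4.81 (n = 5), 11.8 ± 3.81 (n = 5) and 19.5 ± 19.5 RPM (n = 5) in the order above. Without replicate 2 the traditional DCHP mean was 10.9 ± 3.11 RPM (n = 4), and without replicate 3 the PANDORA-seq control mean was 32.0 ± 3.46 RPM (n = 3).

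**Figure D1:**
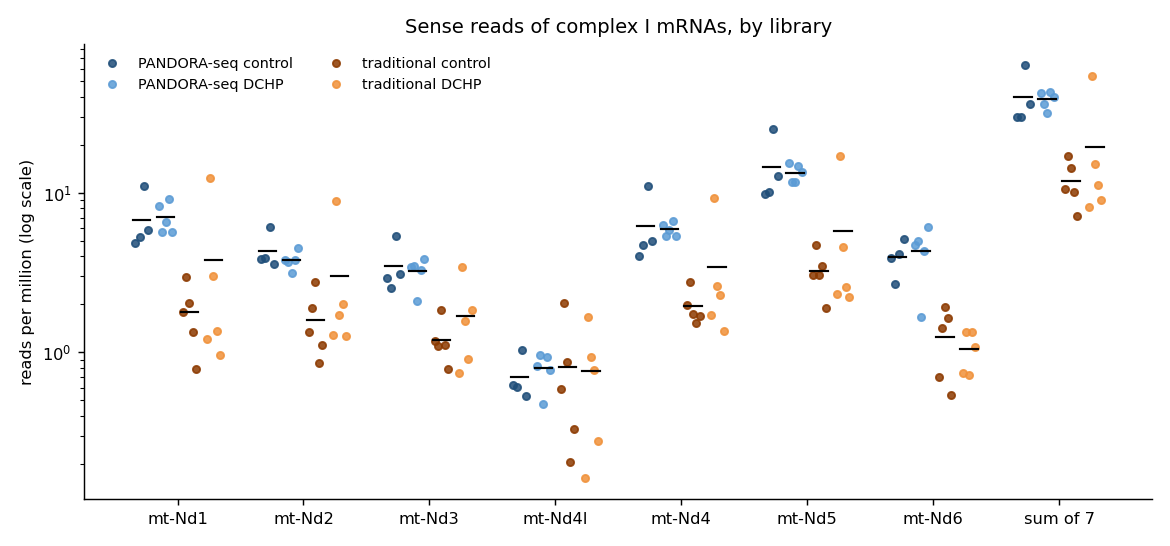
Sense RPM (log scale) of each complex I mRNA and of their sum, 1 point per library, with short lines at group means. Traditional DCHP replicate 2, at 54.1 RPM in the sum, stands apart from the other 9 traditional libraries, which end at 16.9 RPM.

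mt-Nd5, the longest member at 1824 nt, which encodes a proton-pumping membrane subunit, gave the most reads. Its share of the complex I reads was 35.4% ± 2.80 in PANDORA-seq control (SD, n = 4), 34.7% ± 1.69 in PANDORA-seq DCHP, 27.7% ± 4.58 in traditional control and 27.5% ± 3.75 in traditional DCHP (n = 5 each). mt-Nd4l, the shortest at 297 nt, which encodes a small membrane subunit, gave the fewest, with 1.80% ± 0.298 and 2.05% ± 0.422 in PANDORA-seq and 6.05% ± 3.68 and 4.25% ± 2.16 in traditional RNA-seq. Divided by gene length, mt-Nd3, another small membrane subunit, had the highest level of the 7 in every group. It reached 10.003 ± 3.68 RPM per kilobase (RPKM) in PANDORA-seq control, 9.29 ± 1.90 RPKM in PANDORA-seq DCHP, 3.46 ± 1.13 RPKM in traditional control and 4.89 ± 3.07 RPKM in traditional DCHP.

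In PANDORA-seq mt-Nd1, mt-Nd5 and mt-Nd6 came next in RPKM, and mt-Nd4, mt-Nd2 and mt-Nd4l were lower. In the controls mt-Nd5 had 7.94, mt-Nd6 7.65, mt-Nd1 7.10, mt-Nd4 4.49, mt-Nd2 4.19 and mt-Nd4l 2.36 RPKM. Each of these means overlapped its neighbour in the order by the values of single libraries. In PANDORA-seq DCHP the order was mt-Nd6 at 8.37, mt-Nd1 at 7.40, mt-Nd5 at 7.33, mt-Nd4 at 4.31, mt-Nd2 at 3.65 and mt-Nd4l at 2.68 RPKM. There mt-Nd5 lay above mt-Nd4 in every library, and all other neighbours overlapped. In both traditional groups every pair of neighbours among the members overlapped.

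All 7 lay below the mRNAs of cytochrome c oxidase. In PANDORA-seq DCHP, for example, mt-Co2 had 63.1 ± 10.7 RPKM and mt-Atp6, the lowest of the 5 most abundant mRNAs, 19.7 ± 2.98 RPKM, with no overlap between mt-Atp6 and mt-Nd3. Complex I made up 17.6% ± 2.33, 19.3% ± 1.004, 21.3% ± 2.72 and 22.6% ± 1.88 of all mitochondrial mRNA reads in PANDORA-seq control, PANDORA-seq DCHP, traditional control and traditional DCHP. Over the 19 libraries, the mitochondrial genes whose log2 RPM was most like that of the summed members were mt-Atp6 (Pearson r = 0.985), mt-Co1 (r = 0.979) and mt-Co3 (r = 0.957). Both methods are in these values, and all points share library and depth. Within PANDORA-seq r was 0.883, 0.898 and 0.889, and within traditional RNA-seq, where replicate 2 of the DCHP group lies far from the rest, 0.974, 0.960 and 0.920.

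No member passed the test for DCHP exposure in either method. With edgeR's quasi-likelihood test, an adjusted p below 0.1 and a fold above 2, 0 of 7 were called in PANDORA-seq, where 0% of the 13272 genes tested were called, with 270 at an unadjusted p below 0.05. In traditional RNA-seq 0 of 7 were called as well, against 0% of 10804 genes, with 461 genes at an unadjusted p below 0.05. None of the 7 was at an unadjusted p below 0.05 in either method, and DESeq2 also called 0 genes in both.

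The fitted log2 folds in PANDORA-seq, DCHP against control, were small. mt-Nd1 had a log2 fold of 0.05 ± 0.23 (SE), mt-Nd2 -0.20 ± 0.19, mt-Nd3 -0.12 ± 0.22, mt-Nd4l 0.16 ± 0.27, mt-Nd4 -0.07 ± 0.23, mt-Nd5 -0.12 ± 0.23 and mt-Nd6 0.12 ± 0.26, with a median of -0.07 beside 0.01 over all genes. Their direction changed with the libraries and reads used. The median was 0.002 with 4 of 7 higher in DCHP without PANDORA-seq DCHP replicate 3, and 0.051 with 3 of 5 higher without reads that have nuclear copies. Without PANDORA-seq control replicate 3, all 7 were higher in DCHP, with a median log2 of 0.28 beside 0.12 over all genes, and 0 of 7 were called.

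In traditional RNA-seq the folds were larger and less certain. mt-Nd1, a subunit at the quinone site, had a log2 fold of 1.06 ± 0.63, mt-Nd2 0.89 ± 0.54, mt-Nd5 0.82 ± 0.53, mt-Nd4 0.80 ± 0.47 and mt-Nd3 0.48 ± 0.41, while mt-Nd4l had -0.13 ± 0.65 and mt-Nd6 -0.27 ± 0.39. The median of 0.80, beside -0.04 over all genes, rested on replicate 2 of the DCHP group. Without it the median was -0.13 beside -0.17 over all genes, and 2 of 7 were higher.

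The values of mt-Nd1 show this. It had 1.21, 12.4, 3.03, 1.37 and 0.958 RPM in the traditional DCHP libraries and 1.79, 2.96, 2.06, 1.35 and 0.786 RPM in the traditional controls. Apart from the 12.4 RPM of replicate 2 the groups overlap throughout. mt-Nd6 had 0.743, 1.34, 0.724, 1.34 and 1.08 RPM in traditional DCHP, where replicate 2 was no higher than replicate 4.

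Replicate 2 of traditional DCHP differed from its group in the ends of its fragments as well. Of its 1168 complex I reads, 84.8% began with A (95% Wilson interval 82.7% to 86.8%, which covers counting error only), against 48.3% to 71.5% in the other 4 libraries of the group. Reads whose first A followed a C in the gene were 45.5% (42.6% to 48.3%), against 10.2% to 33.3% in the others. Only 7.36% (6% to 9%) began with T, against 17.1% to 33.4%. It was also the shallowest library of the series, with 21588335 reads.

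The DCHP effect itself was not shown to differ between methods. In the edgeR test of the interaction, 0 of 7 were called, as were 0% of 14722 genes, with 630 genes at an unadjusted p below 0.05 and 1 gene called by DESeq2. The median log2 of the members was -0.86 beside 0.12 over all genes, and 0.04 beside 0.26 without replicate 2 of traditional DCHP.

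Between the methods, most of the members were more abundant in PANDORA-seq by RPM. In control mice 6 of 7 were called higher by edgeR with total reads as library size, and mt-Nd4l was not. That share is to be read against 74.2% of the 12481 genes tested being called in either direction and 65.7% higher. mt-Nd5 was 4.45-fold higher (log2 2.15 ± 0.37, adjusted p = 0.000267), mt-Nd1 3.77-fold, mt-Nd4 3.17-fold (adjusted p = 0.00113), mt-Nd6 3.15-fold, mt-Nd3 2.87-fold and mt-Nd2 2.70-fold (adjusted p = 0.0034).

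The single values separated the control groups of the methods for every member but mt-Nd4l. They also did so for mt-Co1, mt-Co2, mt-Co3, mt-Cytb and mt-Atp6, though not for mt-Atp8, so the separation was not particular to complex I. How many of all genes separated in this way was not counted. mt-Nd5 had 9.87, 10.2, 25.03 and 12.8 RPM in PANDORA-seq control and 3.05, 4.74, 3.04, 3.47 and 1.90 RPM in traditional control, with no overlap. mt-Nd6, the subunit encoded on the opposite strand, had 3.89, 2.68, 4.14 and 5.17 RPM against 0.705, 1.42, 1.93, 1.65 and 0.538 RPM, again with no overlap. mt-Nd4l had 0.629, 0.605, 1.04 and 0.531 RPM against 0.587, 2.03, 0.866, 0.206 and 0.331 RPM, and its groups overlapped fully (log2 -0.23 ± 0.56, adjusted p = 0.717).

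In DCHP mice 2 of 7 were called higher, mt-Nd6 by 4.18-fold (log2 2.06 ± 0.32, adjusted p = 3.16e-05) and mt-Nd5 by 2.35-fold (log2 1.23 ± 0.48, adjusted p = 0.0252), against 78.1% of 13257 genes called in either direction and 68.4% higher. mt-Nd3 had a fold of 1.94 with an adjusted p of 0.0188 in edgeR and missed the fold limit. Without replicate 2 of traditional DCHP 6 of 7 were called higher, where 71.4% of 13114 genes were. mt-Nd5 was then 4.58-fold, mt-Nd6 4.48-fold, mt-Nd1 4.29-fold, mt-Nd4 2.97-fold, mt-Nd3 2.56-fold and mt-Nd2 2.42-fold higher, and mt-Nd4l 1.47-fold with an adjusted p of 0.215 in edgeR.

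These folds are relative to all cleaned reads, and most genes moved with them. The median log2 fold over all genes was 1.504 in control and 1.68 in DCHP mice, beside the members' medians of 1.66 and 0.93. In DCHP mice without replicate 2 the members' median was 1.57 beside 1.82. With TMM factors, which set the bulk of genes equal, the median over all genes was 0.11 and 0.05, no member was called higher, against 11.4% of all genes in control and 15.2% in DCHP mice, and the called members were lower in PANDORA-seq, as were 19.7% and 24.3% of all genes. In control mice this was mt-Nd4l (log2 -1.88 ± 0.57, adjusted p = 0.0163 in edgeR). In DCHP mice 6 of 7 members then had a log2 fold below 0, all but mt-Nd6, and those called were mt-Nd4l (log2 -1.49 ± 0.43) and mt-Nd2 (log2 -1.13 ± 0.37, adjusted p = 0.0189 in edgeR).

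**Figure D2:**
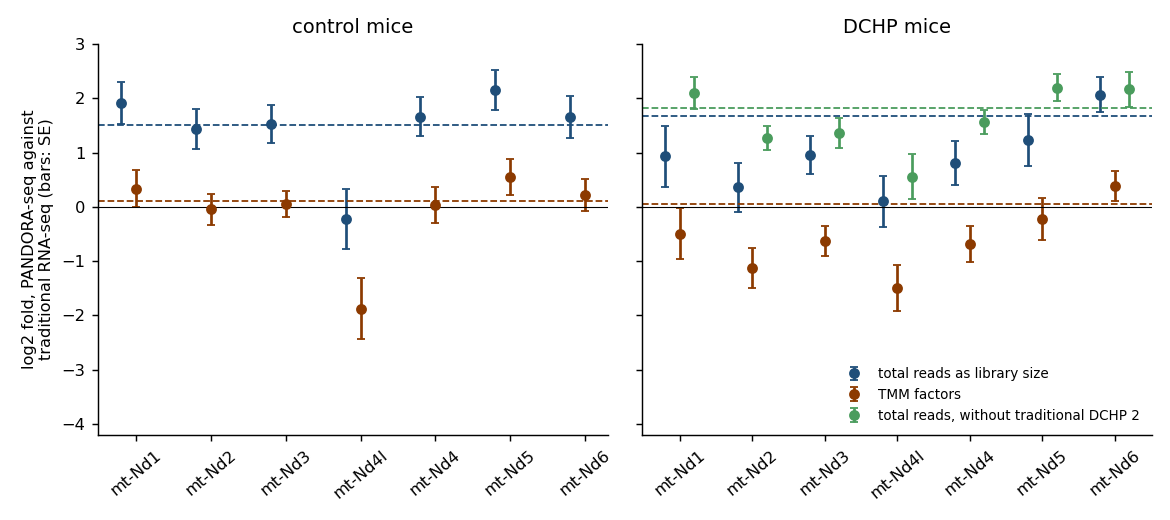
Log2 fold of PANDORA-seq against traditional RNA-seq for each member in control and DCHP mice, with the standard error as bars and the median of all genes as dashed lines in the same colour. The medians of all genes are 1.504 and 1.68 with total reads and 0.11 and 0.05 with TMM factors, 6 of 7 members lie below them in DCHP mice under both, and leaving out traditional DCHP replicate 2 raises the members in DCHP mice.

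The composition of the libraries differed in the same comparison. Annotated miRNA made up 0.0827% to 0.169% of the reads of PANDORA-seq libraries and 4.02% to 14.5% of traditional ones. Exact matches to rRNA made up 16% to 25% and 3.18% to 3.79%. Reads with no exact sense match made up 64.1% to 71.5% of PANDORA-seq and 79.3% to 88.9% of traditional libraries. Part of the rRNA was not in the reference used, so the rRNA shares need not be the full rRNA content. With the miRNA total as library size, the denominator of the study, all 7 members were called higher in PANDORA-seq in both exposures, with medians of log2 7.33 and 6.34 beside 7.15 and 7.28 over all genes. On that scale 97.5% of all genes in control and 96.8% in DCHP mice were called higher as well.

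The nuclear genes of complex I were also described, from a list of 36. Of these, 0 of 35 tested in PANDORA-seq and 0 of 31 tested in traditional RNA-seq were called for DCHP. Between methods 32 of 35 in control and 33 of 35 in DCHP mice were called higher in PANDORA-seq, with median log2 of 1.76 and 1.76, by total reads as library size. Over all genes 65.7% and 68.4% were called higher, with medians of 1.504 and 1.68. With TMM factors 6 and 2 of the 35 were called higher, against 11.4% and 15.2% of all genes. The most abundant were Ndufv1, which binds NADH, at 3.82 ± 1.08 RPM in PANDORA-seq control and 1.12 ± 0.793 RPM in traditional control, Ndufa2 at 3.27 ± 0.816 and 1.36 ± 0.616 RPM, and Ndufb10 at 4.19 ± 0.499 and 0.869 ± 0.480 RPM. The 36 together had 52.8 to 80.2 RPM in PANDORA-seq and 11.6 to 36.9 RPM in traditional RNA-seq. Of the other 6 mitochondrial mRNAs, 5 in control and 4 in DCHP mice were called higher in PANDORA-seq by total reads, against the same 65.7% and 68.4%, and 0 were called for DCHP in either method. With TMM factors 2 were called higher in control mice, against 11.4% of all genes, and in DCHP mice 0 were called higher, against 15.2%, and 1 lower, against 24.3%.

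Coverage of the genes was broad but uneven. Sense reads of the 9 PANDORA-seq libraries together covered 89.1% of the positions of mt-Nd3 to 98.7% of those of mt-Nd1, and the 10 traditional libraries 83.3% of mt-Nd3 to 91.9% of mt-Nd4l. The 10% of positions with the most coverage held 67.2% of the coverage of mt-Nd5 in PANDORA-seq, against 52.7% for traditional RNA-seq, 59.2% and 44.5% for mt-Nd4, and 58.3% and 43.2% for mt-Nd1. The order was the other way in mt-Nd6, with 34.5% and 37.5%, and in mt-Nd4l, which had the fewest reads in both methods, with 28.4% and 41.7%.

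In PANDORA-seq some starts were shared by many reads. There 9.95% of the 2432 mt-Nd1 reads started at 1 base, 749 nt past the first base of the gene, and 10.2% of the 1402 mt-Nd2 reads started 356 nt past it. The leading fragments of these genes printed above start at these bases. Profiles in windows of 25 nt were alike among PANDORA-seq libraries for most genes, with a median pairwise Pearson r of 0.939 for mt-Nd1, 0.941 for mt-Nd5 and 0.677 for mt-Nd4l, whose lowest pair had 0.134. Among traditional libraries, where single pairs went down to -0.149 (mt-Nd6), the medians were 0.520, 0.704 and 0.621, and between methods 0.687, 0.791 and 0.507. Windows of a gene are not independent, and traditional libraries held fewer reads (437 to 1479 per gene outside mt-Nd4l, against 1176 to 4921), so the difference in likeness was not tested.

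**Figure D3:**
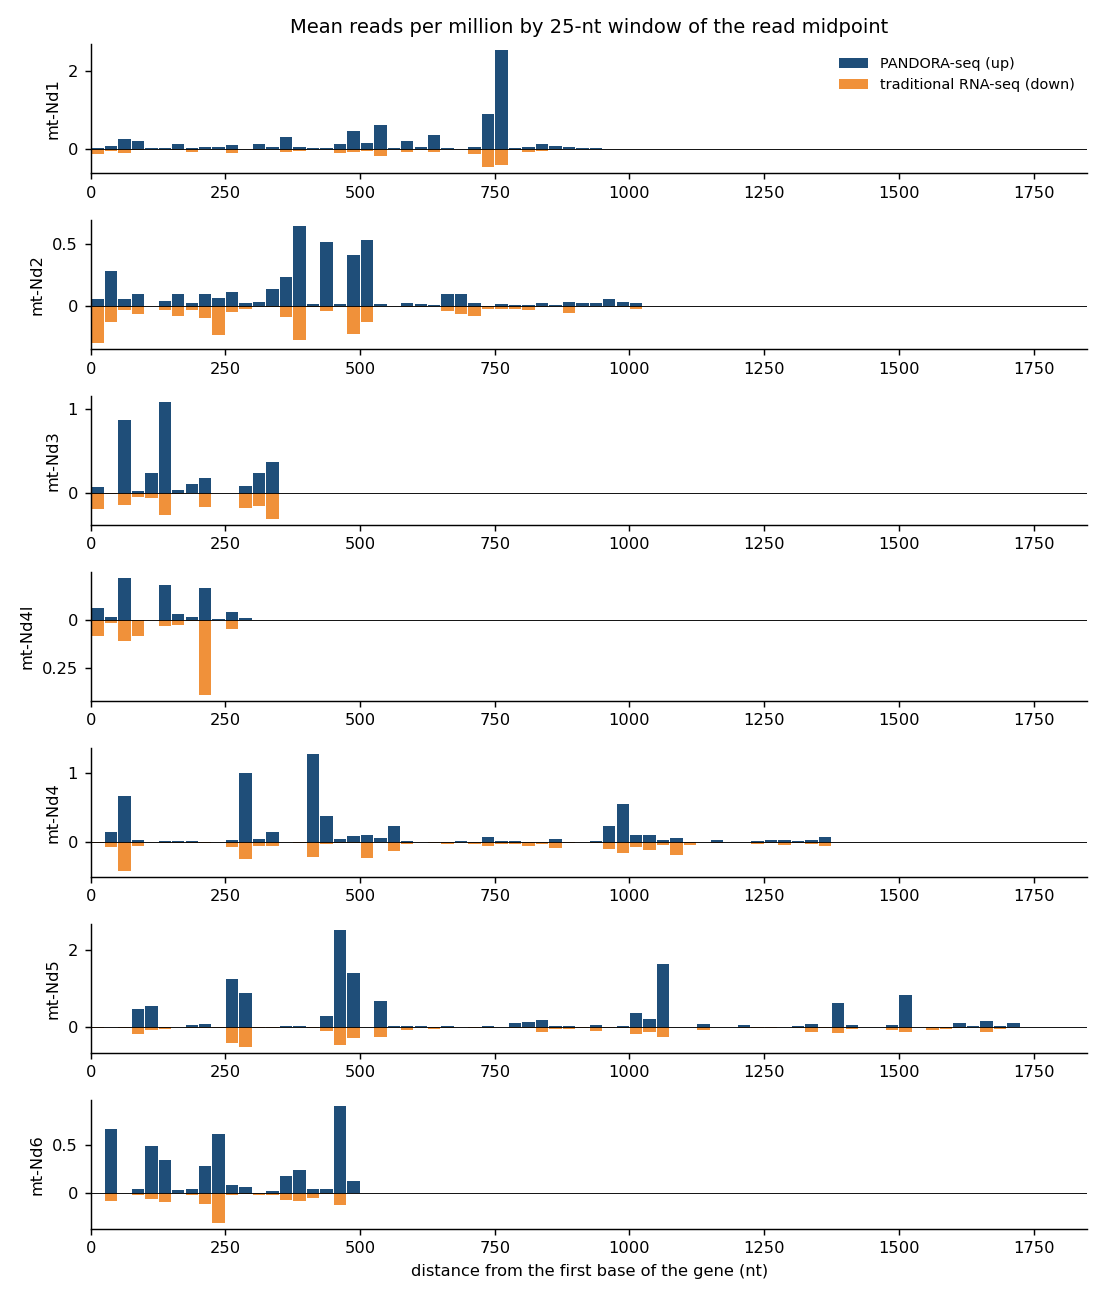
Mean RPM of sense reads by 25-nt window of the read midpoint along each gene, PANDORA-seq upward and traditional RNA-seq downward, on scales that differ between genes. mt-Nd1 has its highest windows at 750 nt in PANDORA-seq (2.54 RPM) and 725 nt in traditional RNA-seq (0.477 RPM), and the first window of mt-Nd2 holds 0.0558 and 0.302 RPM.

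Fragments that start at the very first base of the gene, where the preceding tRNA is cut away, were mainly seen in traditional RNA-seq. They made up 12.1% of mt-Nd2 reads there (93 of 766, in 10 of 10 libraries) and 1.14% in PANDORA-seq (16 of 1402, in 7 of 9). The leading mt-Nd2 fragment of traditional RNA-seq printed above is one of them. For mt-Nd3 the shares were 9.66% and 0.850%, for mt-Nd1 7.10% and 0.123%, and for mt-Nd4l 11.3% and 5.81%. The mt-Nd1 share was uneven, since it had a mean of 11.8% ± 13.7 in traditional control (n = 5) and 0.342% ± 0.764 in traditional DCHP (n = 5).

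For mt-Nd5 7 of 1479 traditional reads and 2 of 4921 PANDORA-seq reads started there. For mt-Nd4, which overlaps mt-Nd4l and has no tRNA before it, 0 of 897 and 0 of 2127 did, which allows shares of up to 0.334% and 0.141%. For mt-Nd6 0 of 437 and 0 of 1487 did, which allows up to 0.686% and 0.202%. These shares were noticed in the data and were not tested.

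At most of the gene ends measured, few or no reads ran across. With 5 nt required on each side, 0 reads crossed from mt-Tl1 into mt-Nd1, from mt-Tg into mt-Nd3 or from mt-Tl2 into mt-Nd5 in either method. Single positions inside these genes were crossed by a median of 17, 25 and 10 reads in PANDORA-seq and by 8.5, 5 and 4 in traditional RNA-seq, and a count of 0 allows up to 3. From mt-Tm into mt-Nd2 there were 12 reads of 2 sequences in 2 traditional libraries and 0 in PANDORA-seq, beside medians of 5 and 8 inside mt-Nd2, so that the traditional count was above the median inside the gene. Between mt-Nd4l and mt-Nd4, which are made on a shared mRNA, 5 PANDORA-seq and 0 traditional reads crossed into mt-Nd4, beside medians of 8 and 7 inside it.

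At the other end, reads with A added after the last base of the gene were found for mt-Nd3 and mt-Nd4. There were 32 in 9 of 10 traditional libraries and 4 in 4 of 9 PANDORA-seq libraries for mt-Nd3, and 23 in 7 traditional libraries and 0 in PANDORA-seq for mt-Nd4. The added run was up to 12 nt long. The base after each of these genes was not in the reference used, so the first A of a run could be encoded. No such read was found for the other 5 members, but only A directly after the annotated last base was searched for. That base lies in the next tRNA for mt-Nd1 and mt-Nd2 and inside mt-Nd4 for mt-Nd4l. For mt-Nd5 and mt-Nd6 it is the end of the stop codon. No read ended at the last base of these 5, and A added at another end would have been missed. Their lack of such reads therefore does not show that no A was added. Reads with added A are outside the exact matches counted above.

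PANDORA-seq fragments were longer. Over all 7 mRNAs, 19.5% of PANDORA-seq control reads were of 18 to 24 nt and 32.4% of 35 to 45 nt, and the median was 31 nt. In PANDORA-seq DCHP these were 17.5%, 39.7% and 32 nt. Traditional control had 45.2%, 15.4% and 26 nt, and traditional DCHP 41.8%, 18% and 27 nt. Reads were pooled within each group for these values, and replicate 2 held 1168 of the 2816 traditional DCHP reads. In that library 33.9% were of 18 to 24 nt, against 39.6% to 53.3% in the others of its group. The mean share of the traditional groups was highest at 18 nt, the shortest length counted, so a peak at shorter lengths would not be seen.

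**Figure D4:**
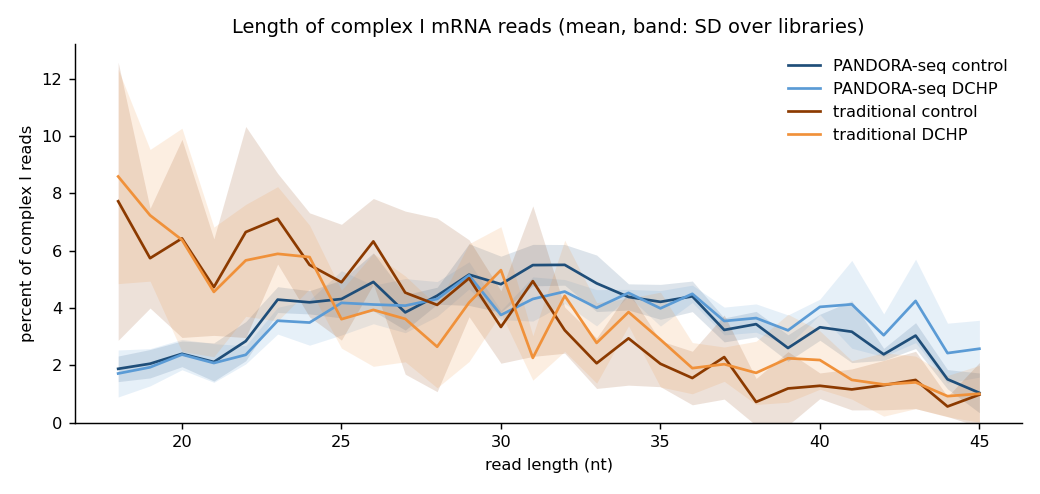
Length distribution of sense complex I reads in nt, as percent of the reads of a library, mean (line) and SD (band) over the libraries of each group. The traditional groups are highest at 18 nt, the shortest length counted. The PANDORA-seq groups are broad around medians of 31 and 32 nt and reach to the limit of 45 nt.

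By gene, mean length was tested with a two-sided exact permutation test of 1 value per library, adjusted over 52 tests (13 mitochondrial mRNAs in 4 comparisons). In all 14 comparisons of the members between methods the PANDORA-seq mean was higher, by 1.73 to 5.08 nt, and 8 of 14 passed an adjusted p of 0.05. These were mt-Nd2, mt-Nd3, mt-Nd4 and mt-Nd5 in both exposures. Of the other 6 mitochondrial mRNAs, tested in the same family, 11 of 12 comparisons passed, so the difference in length was not particular to complex I. mt-Nd4 reads were 32.7 ± 0.461 nt long in PANDORA-seq control (n = 4) and 27.8 ± 2.03 nt in traditional control (n = 5; exact permutation, adjusted p = 0.0344). mt-Nd5 reads were 32.1 ± 0.573 nt and 27.4 ± 0.499 nt long in the same groups. mt-Nd6 had the shortest reads in PANDORA-seq, 27.3 nt in control and 28.3 nt in DCHP, and 1.73 and 2.14 nt more than in traditional RNA-seq, which did not pass.

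All reads of 18 nt or more differed in the same direction, with a mean of 32.8 ± 0.557 nt in PANDORA-seq control, 33.5 ± 0.942 nt in PANDORA-seq DCHP, 30.1 ± 0.694 nt in traditional control and 30.4 ± 0.317 nt in traditional DCHP. With reads of 25 nt or more 0 of 13 passed, and 12 of 13 were longer in PANDORA-seq, by -0.0506 to 3.28 nt over the 13. With any 1 of the control libraries left out 0 of 14 passed, with smallest adjusted p (exact permutation) of 0.0546 to 0.0688. All 14 were still longer in PANDORA-seq. Fewer control libraries raise the smallest p that the test can reach, so this loss cannot show that the difference rested on 1 library. With a DCHP library left out 5 to 8 of 14 passed. Without reads that have nuclear copies 0 of 10 passed, and all 10 were longer by 1.58 to 5.22 nt (smallest adjusted p = 0.0582, exact permutation). DCHP against control gave 0 of 14 passed, with 6 of 7 members longer in DCHP in PANDORA-seq by the mean and a smallest exact p of 0.103.

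The first base of the fragments separated the methods. In PANDORA-seq 65.7% ± 5.14 (control, n = 4) and 62.5% ± 5.35 (DCHP, n = 5) of the complex I reads began with T, and 30.7% ± 4.30 and 33.6% ± 4.92 with A. C and G together began few reads, with 1.52% ± 0.449 and 1.68% ± 0.470 for C. In traditional RNA-seq 27.4% ± 4.94 and 23.6% ± 11.03 began with T, 49.7% ± 11.3 and 61.4% ± 16.1 with A, and 14.3% ± 5.70 and 9.63% ± 3.88 with C. No traditional library reached the lowest PANDORA-seq share of T, 55.8%, the highest being 33.4%. This was noticed in the data and was not tested.

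By gene, the libraries of the methods did not overlap in this share within either exposure, except for mt-Nd4l in control mice, where 1 traditional library reached 80.0%. In PANDORA-seq control the mean share of T as first base ran from 55.3% for mt-Nd4l to 70.7% for mt-Nd1, and in traditional control from 20.9% for mt-Nd1 to 36.8% for mt-Nd4l. Of the bases of the genes themselves, 27.4% to 32.8% are T, except for mt-Nd6 with 43.7%. The other 6 mitochondrial mRNAs had nearly the same shares, with T at 66.5% ± 5.24 in PANDORA-seq control and 28.9% ± 4.99 in traditional control. The whole libraries did not. Of all reads of 18 nt or more, 43.3% ± 5.09 began with T and 30.6% ± 5.86 with A in PANDORA-seq control, and 52.5% ± 5.01 with T and 8.88% ± 2.41 with A in traditional control.

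The base before the cut also differed. In PANDORA-seq control the base of the gene just before the fragment was A in 44.6% ± 4.86 of the reads and T in 22.98% ± 3.28, and in traditional control A in 26.5% ± 5.67 and T in 34.2% ± 3.30. After the last base of the fragment the next base of the gene was most often C, in 46.7% ± 5.03 of PANDORA-seq control and 38.3% ± 5.06 of traditional control reads. G was the least frequent base after the fragment, at 7.41% ± 1.57 and 8.16% ± 1.53. The first bases of fragments fell on all 3 codon positions, with 29.1% ± 0.407, 37.8% ± 2.63 and 33.0% ± 2.27 in PANDORA-seq control.

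At the 3′ end the share of reads that ended in C or T was tested in the same way, and 0 of 14 comparisons passed between methods and 0 of 14 for DCHP. The lowest exact p between methods was 0.0159 for mt-Nd2 in DCHP mice (adjusted p = 0.165), where 55.2% of PANDORA-seq and 63.2% of traditional reads ended in C or T. For DCHP in PANDORA-seq mt-Nd2 had 55.2% against 62.5% in control (exact permutation p = 0.0238, adjusted p = 0.177).

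Antisense reads were found for all 7 genes and were most frequent for mt-Nd5. As a share of sense plus antisense reads they made up 33.1% of mt-Nd5 in PANDORA-seq control, 37.5% in PANDORA-seq DCHP, 44.5% in traditional control and 43.1% in traditional DCHP. mt-Nd4l followed with 28.4%, 21.7%, 27.1% and 27.2%. mt-Nd2 had 3.88%, 5.10%, 5.54% and 7.82%. The permutation test of these shares, adjusted over 52 tests, passed in 0 of 14 comparisons between methods and in 0 of 14 for DCHP, with a smallest exact p of 0.0635. mt-Nd5 gave 71.1% ± 3.24 of all antisense reads to the members in PANDORA-seq control and 76.2% ± 3.01 in PANDORA-seq DCHP. In traditional control it gave 60.1% ± 17.4 and in traditional DCHP 64.6% ± 8.08.

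The antisense level of mt-Nd5 was 4.84, 4.46, 9.83 and 8.88 RPM in PANDORA-seq control and 10.1, 8.99, 3.70, 8.31 and 10.7 RPM in PANDORA-seq DCHP. In traditional control it was 1.204, 3.17, 5.12, 3.97 and 1.16 RPM, and in traditional DCHP 1.998, 5.003, 2.72, 2.53 and 3.28 RPM. Control and DCHP overlapped in both methods, and so did the methods. The traditional DCHP replicate 2 was less far from its group here than on the sense strand.

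These reads were not spread over the gene. mt-Nd6 ends inside mt-Nd5 on the opposite strand, and the 600 nt past the last base of mt-Nd6 are 32.9% of mt-Nd5. They held 68.7% ± 1.53 of its antisense reads in PANDORA-seq control, 72.3% ± 3.81 in PANDORA-seq DCHP, 58.4% ± 18.01 in traditional control and 50.2% ± 6.74 in traditional DCHP. The distance of 600 nt was chosen after the reads were seen. The mean density over these 600 nt was 8.06 ± 3.28 RPKM in PANDORA-seq control, beside 7.65 ± 1.97 RPKM for mt-Nd6 itself. It was 1.76 ± 0.647 RPKM in the rest of mt-Nd5. In PANDORA-seq DCHP the values were 10.2 ± 3.67, 8.37 ± 3.17 and 1.83 ± 0.519 RPKM. In traditional control they were 3.06 ± 2.28, 2.41 ± 1.16 and 0.900 ± 0.512 RPKM, and in traditional DCHP 2.59 ± 1.04, 2.02 ± 0.589 and 1.27 ± 0.476 RPKM, where the stretch stood out least.

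No read joined mt-Nd6 to this stretch with 5 nt on each side of the last base of mt-Nd6, where single positions inside the gene were crossed by a median of 26.5 PANDORA-seq and 9 traditional reads. The most abundant antisense fragment of PANDORA-seq is shown because it lies in this stretch. It had 58 reads in 8 of 9 PANDORA-seq libraries and 1 read in traditional RNA-seq, and it too begins with T.

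mt-Nd5 antisense, PANDORA-seq, chrM:13145-13182, - strand: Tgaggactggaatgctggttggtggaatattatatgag

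**Figure D5:**
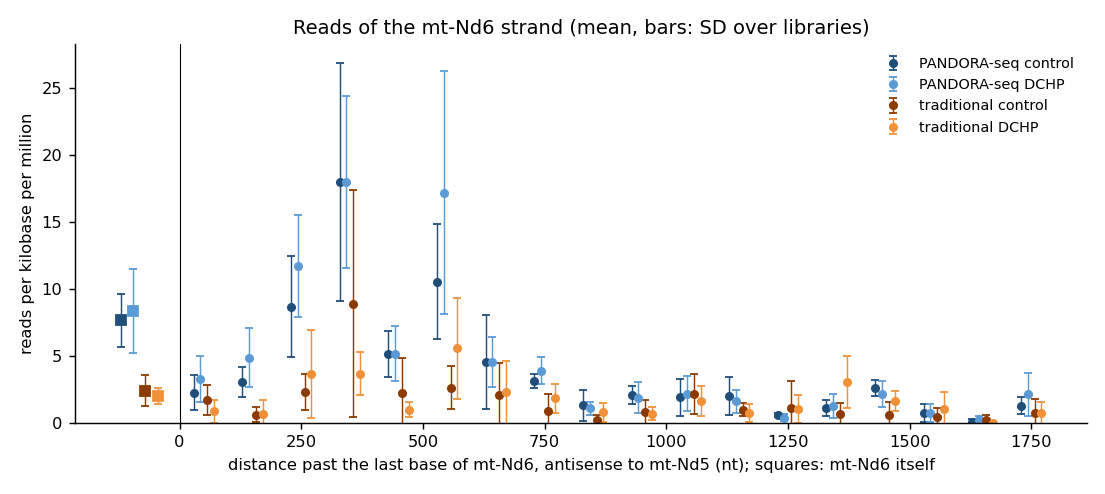
Density in RPKM of reads on the mt-Nd6 strand in windows of 100 nt past the last base of mt-Nd6, which are antisense to mt-Nd5, with mt-Nd6 itself as squares on the left (mean, and SD over libraries as bars, cut off at 0). In PANDORA-seq the windows within 600 nt reach 18.02 RPKM, but those within 200 nt have only 2.26 to 4.85 RPKM. The window ending at 700 nt has 4.52 RPKM in control and 4.57 RPKM in DCHP, and those beyond 700 nt end at 3.90 RPKM.

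Part of the reads could also come from nuclear copies of mitochondrial DNA. Among annotated nuclear transcripts, exact copies were found for 559 of 559 mt-Nd4l reads (all in the pseudogene Gm10222), 93.3% of the 1683 mt-Nd3 reads (Gm28438), 74.6% of the 3024 mt-Nd4 reads (Gm28439), 21.6% of the 6400 mt-Nd5 reads, 9.62% of the 1924 mt-Nd6 reads, 3.78% of the 2168 mt-Nd2 reads and 0 of 3333 mt-Nd1 reads. Nuclear copies outside annotated transcripts were not analysed here. Without such reads 5 members could be tested in each comparison. All 5 were then called higher in PANDORA-seq in control mice, where 65.7% of genes were, and mt-Nd5 and mt-Nd6 in DCHP mice, where 68.4% were, and 0 were called for DCHP.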

How the data were processed

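The authors deposited, for each of 19 libraries, counts of distinct cleaned reads of 15 to 45 nt, made with SPORTS1.1 from 75-nt single-end reads of NEBNext small RNA libraries per the study's methods. The submitters' processing notes name the mm 10 build. Here, reads of 18 nt or more were matched exactly, with BWA 0.7.19 and Python 3.11.15, to GENCODE transcripts of GRCm38. A read counted only where it lay wholly within a gene. Each read counted in 1 class, in the order rRNA, tRNA, miRNA, mitochondrial mRNA and other genes. Reads of mitochondrial mRNAs with a copy in a nuclear transcript were thus kept. Reads shared between genes of the last class were left out. In the classes before it they were split evenly, as in the overlap of mt-Atp6 and mt-Atp8. The genome sequence, most nuclear tRNAs and 28S rRNA were not in the reference used, and the mitochondrial sequence was joined from its genes, so 3 of the junctions were not measurable.

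Gene counts were tested with edgeR 4.0.16 (R 4.3.3) by the quasi-likelihood test, with total cleaned reads as library size, for genes with at least 10 reads in at least 4 libraries. Called genes had a fold above 2 and an adjusted p (Benjamini-Hochberg) below 0.1. Read length, 3′ pyrimidine and antisense share were tested by exact two-sided permutation over libraries (NumPy 2.4.6), adjusted over 52 tests per measure and passed below 0.05. Wilson intervals were made with SciPy 1.17.1. Alternatives were TMM, the miRNA total as library size, DESeq2 1.42.0, no filter, reads of 15 or 25 nt or more, no nuclear copies, no dominant sequence, a replicate block and each library left out. The statistics were tested on simulated data. No pair of libraries of a group agreed within sampling noise (smallest chi-square per degree of freedom 6.37 in 36 pairs).

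All 7 members were named, with the most abundant sequence of each method, the 3 mitochondrial genes most like them and the 3 most abundant nuclear complex I genes. Members, lists and tests were chosen with earlier results of these data known. The labels give no batch. They give DCHP gavage as treatment for every sample, and control libraries were taken from the titles.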

Additional observations from a re-analysis of the deposited data

Results flagged for a closer look

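Of 116 groups of values tested for a library far from the others, 10 had one, and chance flags about 1 in 20. In traditional DCHP, replicate 2 stood apart with 12.4 RPM for mt-Nd1 (the others 0.958 to 3.03), 8.85 RPM for mt-Nd2 (1.27 to 2.02), 9.26 RPM for mt-Nd4 (1.36 to 2.61), 17.1 RPM for mt-Nd5 (2.23 to 4.55) and 54.1 RPM for the sum of the 7 (8.18 to 15.1). In PANDORA-seq control, replicate 3 stood apart with 11.1 RPM for mt-Nd1 (the others 4.88 to 5.88), 6.08 RPM for mt-Nd2 (3.57 to 3.89) and 11.01 RPM for mt-Nd4 (4.05 to 4.97). The share of mt-Nd5 reads that ended in C or T was 55.0% in PANDORA-seq control replicate 1, beside 44.5% to 45.4% in the others, and 45.3% in traditional DCHP replicate 4, beside 56.0% to 58.9%.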

How the results depend on the processing

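The count of members called between methods turned with the scaling. In control mice 1 member was called lower in PANDORA-seq with TMM and 1 with DESeq2, in place of 6 higher. In DCHP mice 2 were called lower with TMM and 2 with DESeq2, in place of 2 higher, while 7 were called higher with the miRNA total, 5 with reads of 25 nt or more (9451 of 12063 genes) and 5 with the replicate block (9292 of 13257 genes), and leaving out each library gave 2 to 6. The log2 folds that changed sign and were called before or after were, in DCHP mice with TMM and DESeq2, mt-Nd2 at -1.12 and -1.11, mt-Nd4l at -1.49 and -1.47 and mt-Nd5 at -0.23 and -0.21. There mt-Nd1 at -0.50 and -0.49, mt-Nd3 at -0.63 and -0.61 and mt-Nd4 at -0.69 and -0.66 changed sign too, called with neither of them nor with total reads. In control mice the called ones were mt-Nd2 at -0.0456 and -0.11, mt-Nd3 at -0.0017 and mt-Nd4 at -0.0551 with DESeq2, and mt-Nd4l at 5.83 with the miRNA total. The cause was not tested. Over all genes, 9266 were called between methods in control mice (8204 higher), 3879 with TMM (1421 higher) and 3955 with DESeq2 (1360 higher). In DCHP mice 10349 were called (9067 higher), 5235 with TMM (2013 higher) and 5406 with DESeq2 (2231 higher). Called lower with TMM and DESeq2 were 2458 and 2595 of 12481 genes in control mice, and 3222 and 3175 of 13257 in DCHP mice. For DCHP in PANDORA-seq 0 genes were called, but 14 with the miRNA total, 33 without the filter, 2 with reads of 15 nt or more and 1 with the block, and in traditional RNA-seq 148 without the filter, none of them a member.

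The number of members whose length differed between methods was 0 with reads of 25 nt or more, 0 without reads with nuclear copies, 0 with the replicate block, whose smallest possible p is 0.0625 and where all 14 were longer in PANDORA-seq by 2.14 to 5.14 nt, and 0 to 8 with each library left out. The 0 on leaving out a library came only with control libraries, where the smallest p that the test can reach rises. No other count of members that passed changed on leaving out a library. Of single log2 folds 649 stayed on their side of the threshold with no called value changing sign (of these, uncalled values changed sign in 11 between methods and 28 in the other comparisons), 20 newly passed, 10 no longer passed and 11 changed sign as called values. Replicate numbers were not taken as pairs, since not all same-numbered libraries correlated over 0.1. Between methods 2 of 4 control pairs and 4 of 5 DCHP pairs did. Between exposures, where the mice differ, 0 of 4 PANDORA-seq and 1 of 5 traditional pairs did. In DCHP mice, however, 9 of 10 libraries correlated best with their own number in the other method, a hint from the data (5 of 8 in control mice). The study ran RNA of control and exposed sires through both methods, but which libraries share a mouse is not given in the sources used here. Nuclear copies could be left out only where they lie in annotated transcripts. Depth limits mt-Nd4l most, with 258 PANDORA-seq and 301 traditional reads in all.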
